A study of Homo sapiens with 14 samples.

Results

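The genes described here are 10 genes of the NRF2 pathway, chosen by their gene symbols from the 57820 genes of the deposited tables: NFE2L2, KEAP1, GCLC, GCLM, SLC7A11, TXNRD1, SRXN1, HMOX1, NQO1 and OSGIN1. All 10 symbols were found, each at a single gene identifier, and the same identifiers joined the tables of mismatches, of fragments-per-million (FPM) values and of half-lives.

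NRF2, the protein of NFE2L2, is a transcription factor that switches on genes for the defence against oxidants and electrophiles. In unstressed cells KEAP1 holds NRF2 and hands it to a ubiquitin ligase, so that the protein is made and destroyed continuously. Electrophiles that modify cysteines of KEAP1 let NRF2 build up, bind with a small MAF partner at antioxidant response elements (AREs) and raise its targets, among them the genes that make glutathione, that reduce thioredoxin and peroxiredoxins, that degrade heme and that reduce quinones. The messenger of NFE2L2 itself is known to turn over fast.

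All libraries were made of polyadenylated RNA of the human embryonic kidney line HEK293T, with 2 replicates per group, and nothing in the labels says whether the replicates came from separate cultures, so that p-values measure only the spread between these libraries. In bulk RNA, fewer cells and less RNA per cell cannot be told apart. In the conversion experiment the groups were no treatment (Con), 4-thiouridine (s4U) added to the medium for 24 h, acrylonitrile added to the isolated RNA without s4U (AN), and both (s4U+AN). The protocol gives 50 µM s4U for both labeled groups, whereas the treatment label of the s4U+AN libraries gives 500 µM. In the PDP experiment, cells received 0, 4 or 8 µM PDP, a pyridostatin analog that binds G-quadruplexes, 20 min before 1 h with 500 µM s4U, and the RNA of all 3 groups was treated with acrylonitrile, which turns s4U into a base read as C, so that a fragment with a T-to-C mismatch counts as labeled.

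The 14 libraries held 6074118 to 22363992 fragments, and the 0 µM PDP libraries held fewer fragments (9770956 and 10564894) than the other PDP libraries (18373693 to 22363992). In the conversion experiment 85.8% to 90.6% of fragments lay in genes without acrylonitrile and 68.4% to 70.9% with it. In the PDP experiment this share was 82.6% and 83.0% at 0 µM and 86.5% to 89.7% with PDP. Of 8 marker genes of the HEK293 line, including PAX2 and NEFM, all 8 were detected in every library, with a summed level of 189 to 576 CPM (counts-per-million units of the fragments in genes) in the conversion experiment and 545 to 596 in the PDP experiment. Markers of MCF7 cells, used elsewhere in the study, summed to 90.7 to 317 CPM, nearly all from XBP1, GREB1 and GATA3, while KRT19 was at 0 in 13 of the 14 libraries. Markers of blood cells summed to 0.720 to 2.64 CPM, and HBB was at 0 in every library. Markers of liver cells summed to 13.7 to 294 CPM in the conversion experiment and to 0.692 to 1.32 in the PDP experiment.

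The letters of the ARE core, TGACNNNGC on either strand, were searched from 1000 bases upstream to 200 bases downstream of the start of each gene's canonical transcript (GENCODE v44lift37) in the GRCh37 genome. They were present at 5 of the 10 members, and at 38.3% of 19637 protein-coding genes, so that these letters alone did not set the members apart. The matches at NQO1 and GCLM, the genes by which the element is best known, and both matches at TXNRD1, which was higher after s4U and after PDP, are printed with the core in capitals.
NQO1 chr16:69760904-69760924, minus strand, 455 bases upstream: tcacagTGACTCAGCagaatc
GCLM chr1:94375006-94375026, plus strand, 34 bases upstream: agacaaTGACTAAGCagaaat
TXNRD1 chr12:104609452-104609472, plus strand, 99 bases upstream: gggctaTGACTTCGCtgttgt
TXNRD1 chr12:104609543-104609563, minus strand, 8 bases upstream: gggaacTGACGGAGCcgaagg
The other matches were at GCLC and OSGIN1, which were called lower after s4U in both comparisons given below. GCLM was called lower in total fragments after PDP. Members with a match were thus called in both directions. A match is a description of the sequence and not a bound site, and no match at the remaining members says only that these letters were not in this window. G-quadruplex motifs, 4 runs of at least 3 G with loops of 1 to 7 bases, lay within 2000 bases of the start at 7 of the 10 members and at 74.9% of all protein-coding genes. OSGIN1 had 9 of them and NFE2L2 5, while GCLC, TXNRD1 and SLC7A11 had none.

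Per kilobase of transcript, the thioredoxin reductase TXNRD1 lay at or near the top in untreated cells, while the rank of NFE2L2 depended on a gene nested within it. On the scale of CPM after TMM scaling and per kilobase, the Con level was 32.8 ± 0.36 (SD, n = 2) for NFE2L2, 31.9 ± 0.12 for TXNRD1 and 23.3 ± 0.67 for KEAP1. SRXN1 (12.7 ± 0.49), GCLC (11.5 ± 0.46), HMOX1 (7.34 ± 0.31), SLC7A11 (6.43 ± 0.072) and GCLM (3.65 ± 0.47) followed, with no overlap between neighbours in that order. NQO1 (0.628 ± 0.037) and OSGIN1 (0.568 ± 0.15) were the least abundant, and their libraries overlapped. With the fragments of nested genes taken off, as described in the next paragraph, NFE2L2 stood at 15.7 ± 0.62, below TXNRD1 (31.0 ± 0.21) and KEAP1 and above SRXN1, with no overlap. In the 0 µM PDP libraries, in FPM per kilobase, the order was KEAP1 (58.4 ± 1.3), HMOX1 (22.3 ± 1.6), SRXN1 (18.97 ± 0.029), NFE2L2 (11.6 ± 1.3), TXNRD1 (10.5 ± 0.059), GCLC (10.4 ± 0.40) and GCLM (9.74 ± 0.10), where TXNRD1 and GCLC overlapped. With the nested genes taken off, NFE2L2 overlapped GCLC and GCLM there, and TXNRD1 (9.24 ± 0.17) lay below GCLM. SLC7A11, the cystine transporter, was the lowest there, at 0.211 ± 0.077, and overlapped OSGIN1 (0.328 ± 0.16), which overlapped NQO1 (0.464 ± 0.14). The experiments differ in treatment, labeling and scaling, so that no difference between them was tested.

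Part of the fragments of NFE2L2 and TXNRD1 appeared to lie in shorter genes nested within them on the same strand. AC074286.1, annotated as sense-overlapping within NFE2L2 (chr2:178092323-178257425, minus strand, GRCh37, GENCODE v19 as in the tables), held 584 of the 1158 and 574 of the 1066 fragments counted for NFE2L2 in Con, which is 50.4% and 53.8%. It held 50 of 694 and 55 of 1001 in s4U, 31.6% and 29.4% in AN, and 4.10% and 6.32% in s4U+AN. RPL18AP3, a ribosomal protein pseudogene, and EID3 lie within TXNRD1 (chr12:104609557-104744061, plus strand), and together held 3.19% and 2.76% of its fragments in Con, 11.6% and 3.64% in s4U, 8.01% and 9.52% in AN, and 27.8% and 26.2% in s4U+AN. In no class of mismatch number of any conversion library did a nested gene hold more fragments than its host (0 of 37, 48 and 27 classes for AC074286.1, RPL18AP3 and EID3). Counting a fragment for both genes gives this, but so can a nested gene with far fewer fragments than its host. The percentages above, and all values with nested genes taken off, assume counting for both genes, which was not shown. Such values are printed beside the others in several comparisons of both members. SRXN1 overlaps an annotated gene on the same strand and does not lie wholly within it. That gene held a similar number of fragments in every library, as with 483 against 479 for SRXN1 in the first Con library. Whether these are the same fragments was not shown. OSGIN1 overlaps a gene, RP11-505K9.4, which held more fragments than OSGIN1 in every library. RP11-505K9.4 held 304 and 298 fragments in Con, 45 and 63 in s4U, 157 and 130 in AN and 46 and 34 in s4U+AN. Its part in the changes of OSGIN1 was not tested. Reads were mapped with a strand setting, but whether strand was used in counting is not stated in the labels or methods, and NFE2L2 also overlaps AGPS on the other strand.

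The first comparison asked how labeling for 24 h altered the members. Without acrylonitrile, 2 of the 10 members were higher after s4U (GCLM and TXNRD1) and 5 were lower (NFE2L2, GCLC, SRXN1, HMOX1 and OSGIN1), where 35.7% of all 18914 genes tested were higher and 34.8% were lower (70.5% in either direction). With acrylonitrile in both groups, 2 were higher (TXNRD1 and SLC7A11) and 4 were lower (GCLC, SRXN1, HMOX1 and OSGIN1), against 33.0% and 31.2% of all genes (64.1% in either direction). The members' median log2 change was -0.13 without and 0.06 with acrylonitrile, and that of all genes 0.02 and 0.05. HMOX1, GCLC, SRXN1 and OSGIN1 were called lower in both comparisons and TXNRD1 was called higher in both. No library is shared between these comparisons, but all conversion libraries were fitted together with a common estimate of the spread. The labels do not say whether their RNA came from separate cultures. How many of all genes were called the same way in both was not counted, so the agreement is not read as particular to the members. Tests were edgeR's quasi-likelihood tests on fragment counts with Benjamini-Hochberg adjustment over all genes, called at 0.05, and changes are on the log2 scale with their SE.

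**Figure D1:**
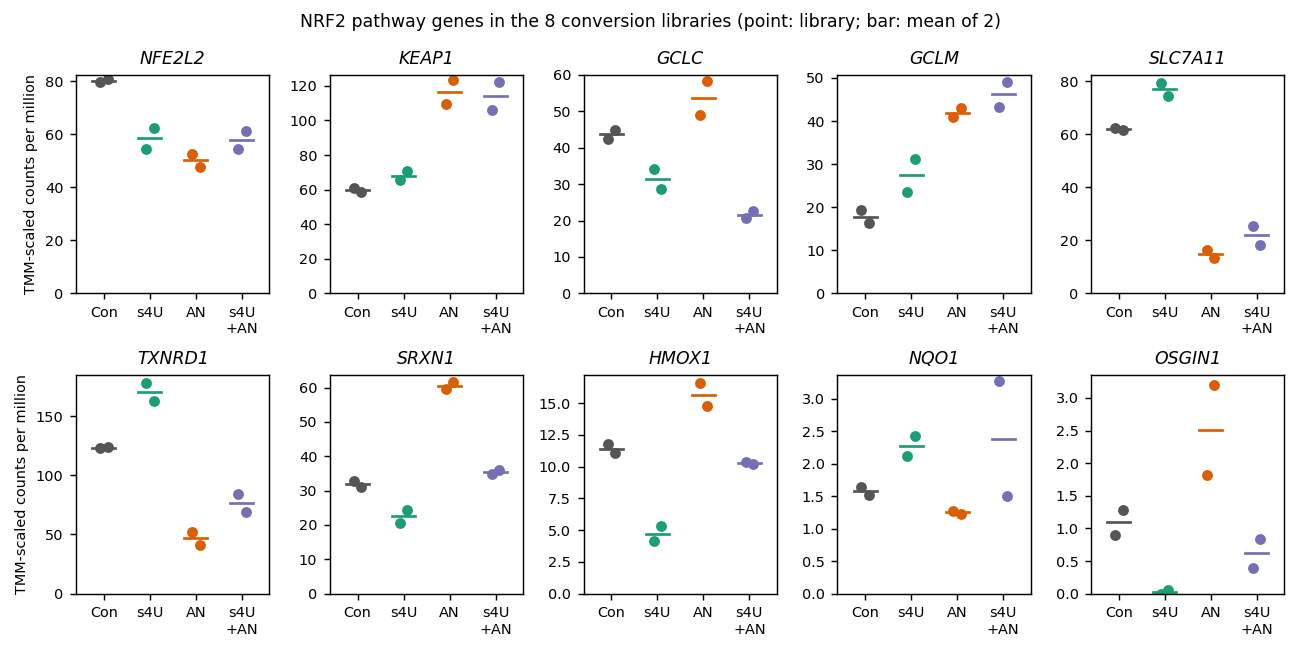
Level of each member in TMM-scaled CPM (y axis, from 0, its own range per gene) in the 8 conversion libraries, by group; points are libraries and bars the mean of 2. HMOX1 and SRXN1 were lower in the s4U than in the Con libraries and lower in s4U+AN than in AN, TXNRD1 and SLC7A11 were lower with acrylonitrile, and GCLM was higher with it.

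The regulators NFE2L2 and KEAP1 gave different pictures. NFE2L2 stood at 79.6 and 80.8 CPM in Con, 54.4 and 62.4 in s4U, 52.5 and 47.7 in AN and 54.3 and 61.1 in s4U+AN. Con was thus above all other groups, and s4U+AN overlapped s4U. NFE2L2 changed by -0.46 ± 0.12 after s4U without acrylonitrile (adjusted p = 0.00563) and by 0.20 ± 0.13 with it (adjusted p = 0.200). With the fragments of AC074286.1 taken off, 574 and 492 fragments were left in Con and 644 and 946 in s4U, the sign turned, and NFE2L2 was higher after s4U in both comparisons, by 0.51 ± 0.13 (adjusted p = 0.00356) and 0.65 ± 0.14 (adjusted p = 0.00161). Whether NFE2L2 fell or rose without acrylonitrile thus depended on taking off the fragments of the nested gene. KEAP1 (chr19:10596796-10614417, minus strand), the inhibitor, stood at 61.0 and 58.5 CPM in Con, 65.6 and 70.6 in s4U, 110 and 123 in AN and 106 and 122 in s4U+AN. Its libraries with acrylonitrile were all above those without, and its change after s4U did not pass the test without (0.19 ± 0.12, adjusted p = 0.184) or with acrylonitrile (-0.03 ± 0.12, adjusted p = 0.855). With an offset for GC content, KEAP1 was called higher after s4U in both comparisons, at 0.55 (adjusted p = 6.18e-04) and 0.30 (adjusted p = 0.0286).

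Of the genes for glutathione, the catalytic and the modifier subunit of glutamate-cysteine ligase, the first enzyme of its synthesis, went apart. GCLC (chr6:53362139-53481768, minus strand), the catalytic subunit, stood at 42.4 and 44.9 CPM in Con, 34.3 and 28.6 in s4U, 48.9 and 58.2 in AN and 20.8 and 22.5 in s4U+AN. Neither s4U group overlapped its control. GCLC fell by 0.48 ± 0.14 without acrylonitrile (adjusted p = 0.00999) and fell by 1.31 ± 0.15 with it (adjusted p = 2.53e-05), the largest drop with acrylonitrile among the members other than OSGIN1. GCLM (chr1:94350761-94374966, minus strand), the modifier subunit that raises the activity of GCLC, stood at 19.4 and 16.2 in Con, 23.6 and 31.2 in s4U, 40.9 and 43.0 in AN and 43.3 and 49.2 in s4U+AN. GCLM rose by 0.62 ± 0.17 without acrylonitrile (adjusted p = 0.00563) and differed by 0.14 ± 0.17 with it (adjusted p = 0.486). SLC7A11 (chr4:139085251-139163503, minus strand), which brings in the cystine that glutathione is made from, stood at 62.5 and 61.5 in Con, 79.2 and 74.5 in s4U, 16.4 and 13.5 in AN and 25.5 and 18.1 in s4U+AN. Each s4U group lay above its control, and the change was 0.31 ± 0.15 without acrylonitrile (adjusted p = 0.0819) and 0.54 ± 0.19 with it (adjusted p = 0.0243).

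Of the thioredoxin genes, TXNRD1 rose and SRXN1 fell in both comparisons. TXNRD1, which reduces thioredoxin with NADPH, stood at 123 and 124 CPM in Con, 178 and 163 in s4U, 52.4 and 41.3 in AN and 84.2 and 69.1 in s4U+AN. It rose by 0.47 ± 0.14 (adjusted p = 0.0100) and 0.71 ± 0.15 (adjusted p = 0.00156), and with the nested genes taken off by 0.39 ± 0.13 (adjusted p = 0.0204) and 0.38 ± 0.15 (adjusted p = 0.0387). SRXN1 (chr20:627259-634014, minus strand), sulfiredoxin, which repairs overoxidized peroxiredoxins, stood at 32.9 and 31.2 in Con, 20.7 and 24.4 in s4U, 59.5 and 61.7 in AN and 34.9 and 35.9 in s4U+AN. SRXN1 fell by 0.51 ± 0.13 (adjusted p = 0.00460) and 0.77 ± 0.13 (adjusted p = 4.23e-04), and neither s4U group overlapped its control.

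HMOX1, NQO1 and OSGIN1 had the lowest CPM of the members in Con, although per kilobase HMOX1 lay above SLC7A11 and GCLM there. HMOX1 (chr22:35776354-35790207, plus strand), heme oxygenase 1, stood at 11.8 and 11.1 CPM in Con, 4.15 and 5.30 in s4U, 16.6 and 14.7 in AN and 10.3 and 10.2 in s4U+AN. HMOX1 fell by 1.26 ± 0.19 without acrylonitrile (adjusted p = 1.15e-04), to less than in any other group, and by 0.61 ± 0.20 with it (adjusted p = 0.0191). OSGIN1 (chr16:83981887-83999937, plus strand), an oxidative stress-induced growth inhibitor, held 13 and 17 fragments in Con and 0 and 1 in s4U, and 10 and 13 in AN and 3 and 5 in s4U+AN. The pooled s4U level was 2.64% of that of Con (exact 95% counting interval 0.0648% to 15.9%) and the s4U+AN level 20.4% of that of AN (7.90% to 47.3%), and both differences passed (adjusted p = 6.24e-04 and 0.0149). These intervals cover counting error only. NQO1 (chr16:69740899-69760854, minus strand), a quinone reductase that is often read as the marker of NRF2 activity, held only 24 and 20 fragments in Con, 27 and 39 in s4U, 7 and 5 in AN and 25 and 9 in s4U+AN. Its change did not pass without (0.52 ± 0.36, adjusted p = 0.213) or with acrylonitrile (0.96 ± 0.49, adjusted p = 0.109), and at these counts only a large change could have been detected.

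**Figure D2:**
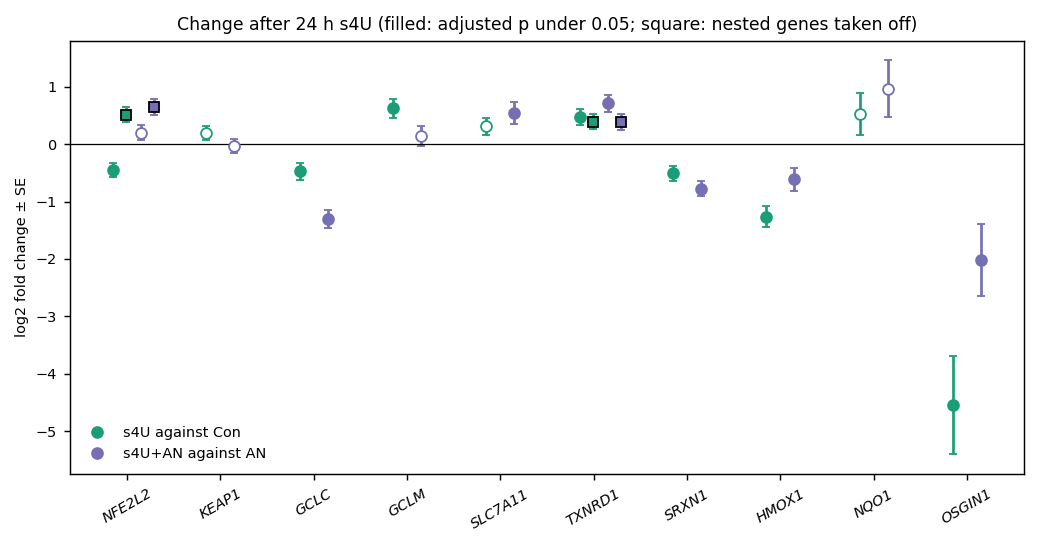
Log2 fold change after 24 h of s4U (y axis; bars are SE) for each member, without acrylonitrile (green, s4U against Con) and with it (purple, s4U+AN against AN); filled symbols passed an adjusted p of 0.05 and squares give NFE2L2 and TXNRD1 with nested genes taken off. HMOX1, GCLC, SRXN1 and OSGIN1 lie below 0 in both comparisons, TXNRD1 lies above 0 in both, and NFE2L2 is below 0 only without acrylonitrile and only with the nested gene counted.

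Several of these calls rested on 1 library or on the scaling. Without acrylonitrile, GCLC was not called without the second Con library (adjusted p = 0.0768) or with DESeq2 (0.0511), GCLM not without the second Con library (0.0796) or with a GC offset (0.158), SRXN1 not without the first Con library (0.0519), and TXNRD1 not without either Con library (0.0706 and 0.0670) or with a GC offset (0.0587). GCLM and TXNRD1 were also lost with library totals in place of TMM (adjusted p = 0.118 and 0.320), which shifted the median of all genes to -0.26. With acrylonitrile, HMOX1 was lost without the first AN library (0.162) and without either s4U+AN library (0.0777 and 0.0860), SLC7A11 without the second AN (0.140) or the first s4U+AN library (0.187), and OSGIN1 without the second AN (0.127) or the first s4U+AN library (0.141). With a GC offset SLC7A11 (0.26, adjusted p = 0.188), HMOX1 (0.0541) and OSGIN1 (0.0629) were lost there, with DESeq2 HMOX1 (0.0912) and OSGIN1 (0.0525), without the filter on low counts HMOX1 (0.0680), and with library totals SLC7A11 (0.29, adjusted p = 0.240). In the other direction, SLC7A11 passed without acrylonitrile once the second s4U library was left out (0.0209), and NQO1 passed with acrylonitrile once the second s4U+AN library was left out (0.0213). HMOX1 and OSGIN1 without acrylonitrile, and GCLC, SRXN1 and TXNRD1 with it, were called under every alternative run.

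A test of the difference between these comparisons asked whether the s4U change depended on acrylonitrile. None of the 10 members passed, against 2.24% of all genes (1.71% with a higher and 0.534% with a lower value), and 3 had an unadjusted p under 0.05 in edgeR, while DESeq2 also called 0. The largest differences among these were -0.83 ± 0.21 for GCLC (adjusted p = 0.0669), 0.66 ± 0.18 for NFE2L2 (0.0860) and 0.65 ± 0.27 for HMOX1 (0.264). With the nested gene taken off, the difference for NFE2L2 was 0.13 ± 0.19 (adjusted p = 0.771). Without the filter on low counts NFE2L2 (0.77, adjusted p = 0.00879) and GCLC (-0.71, adjusted p = 0.0499) passed. With 1 s4U library left out, GCLC and NFE2L2 passed for either library (GCLC 0.0225 and 0.00154, NFE2L2 0.0232 and 0.00208), GCLM passed without the first (0.0320) and HMOX1 without the second (0.0409).

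Other genes of the pathway also moved in both directions. The shares over all genes were 35.7% higher and 34.8% lower without acrylonitrile, and 33.0% and 31.2% with it. Of 11 regulators and partners of NRF2, 5 were higher and 3 lower after s4U without acrylonitrile (median 0.33), and 3 and 3 with it (median 0.12). MAFG, a small MAF partner of NRF2, was higher in both (1.05 ± 0.13 and 0.87 ± 0.13), as was NFE2L1, the relative of NFE2L2 that governs proteasome genes (0.73 ± 0.11 and 1.09 ± 0.11). The small MAF genes MAFF (-1.61 ± 0.30 and -1.11 ± 0.30) and MAFK (-0.40 ± 0.13 and -0.87 ± 0.13) were lower in both. Of 48 other NRF2 targets, 40 were tested. Of these, 12 were higher and 13 lower without acrylonitrile (median 0.05), and 15 and 6 with it (median 0.32). Those with the smallest p were SLC3A2, the partner of SLC7A11 in the transporter (1.20 ± 0.13), FTH1 (1.14 ± 0.15), ABCC1 (-0.93 ± 0.12) and EPHX1 (0.98 ± 0.13) without acrylonitrile, and FTL (1.63 ± 0.14), FTH1 (1.71 ± 0.15), GSTP1 (1.53 ± 0.14) and GSTM3 (1.67 ± 0.17) with it. FTL and FTH1, the ferritin chains, have many near-identical processed pseudogenes, and GSTM3 has close paralogs, among which unique mapping can split reads. Of 11 targets of ATF4, which shares SLC7A11 and others with NRF2, 0 were higher and 6 lower without acrylonitrile (median -0.80), and 1 and 6 with it (median -0.60). CHAC1, which degrades glutathione, was the lowest of them in both (-2.40 ± 0.22 and -2.22 ± 0.22). Markers of the HEK293 line moved with labeling too: 1 of 8 was higher and 4 lower without acrylonitrile, 0 and 4 with it, and their summed level was 436 and 442 CPM in Con, 189 and 218 in s4U, 568 and 576 in AN and 278 and 281 in s4U+AN. The part of this in the members' changes was not tested.

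The members were also compared with and without acrylonitrile. The share of fragments in genes and the liver markers differed between these groups too, as did the labels' s4U dose of the labeled groups, and their part was not tested. Without s4U, 3 of 10 members were higher (KEAP1, GCLM and SRXN1) and 3 lower (NFE2L2, TXNRD1 and SLC7A11), against 29.1% and 30.6% of all genes (59.7% together). In labeled RNA, 5 were higher (KEAP1, GCLM, SRXN1, HMOX1 and OSGIN1) and 3 lower (GCLC, TXNRD1 and SLC7A11), against 31.0% and 33.9% (64.9% together). These comparisons share their libraries with the s4U comparisons, so that they are not independent of them. In labeled RNA the call was lost for GCLC without the first s4U+AN library (adjusted p = 0.0815) and with DESeq2 (0.0659), for OSGIN1 without the second (0.0830) and for SRXN1 with library totals (0.0675). SLC7A11 changed most among the members with many fragments, by -2.04 ± 0.18 without s4U (adjusted p = 4.59e-06) and -1.81 ± 0.16 with it (adjusted p = 3.96e-06). TXNRD1 fell by 1.39 ± 0.15 and 1.15 ± 0.14. GCLM rose by 1.23 ± 0.17 and 0.75 ± 0.16, KEAP1 by 0.96 ± 0.12 and 0.74 ± 0.12, and SRXN1 by 0.92 ± 0.13 and 0.65 ± 0.13. HMOX1 rose by 1.11 ± 0.20 in labeled RNA and differed by 0.46 ± 0.19 without s4U (adjusted p = 0.0530).

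GC content moved with these differences over all genes, with a Spearman's rho of 0.71 without s4U and 0.70 with it over 18237 genes, which are not independent replicates. KEAP1, of 60.2% GC, was not called with a GC offset in either comparison (0.08 without s4U, adjusted p = 0.594, and -0.18 with it, adjusted p = 0.197), nor was NFE2L2 without s4U (-0.02, adjusted p = 0.941) or GCLC (-0.01, adjusted p = 0.957), HMOX1 (0.47, adjusted p = 0.0734) and OSGIN1 in labeled RNA (2.53, adjusted p = 0.0952). GCLC without s4U, at 0.29 and not called (adjusted p = 0.102), was called higher with the offset (0.81, adjusted p = 0.00124). SLC7A11, of 35.4% GC and at the 1.94th percentile of protein-coding genes, stayed lower with the offset, at -0.998 (adjusted p = 4.86e-04) and -0.68 (adjusted p = 0.00246). GCLM, of 37.3% GC and at the 6.00th percentile, went against the trend of the GC-poor genes, and its rise was larger with the offset, at 2.17 (adjusted p = 2.13e-05) and 1.78 (adjusted p = 3.86e-05). NFE2L2 was also not called without s4U once the nested gene was taken off (-0.14, adjusted p = 0.394), and with the offset it was called higher in labeled RNA (0.68, adjusted p = 0.00162). Markers of liver cells were higher with acrylonitrile for 11 of the 11 tested without s4U, with sums of 113 and 294 CPM in AN against 26.7 and 28.4 in Con.

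After 24 h of labeling, nearly all fragments of 8 members carried a mark. The marked share, that is the percentage of fragments holding 1 or more T-to-C mismatches, was in s4U+AN 95.2% ± 0.54 (SD, n = 2) for KEAP1, 92.4% ± 1.6 for SLC7A11, 91.8% ± 0.98 for SRXN1, 91.8% ± 0.48 for GCLM, 90.9% ± 0.15 for TXNRD1, 89.6% ± 3.2 for GCLC, 89.1% ± 0.10 for NFE2L2 and 87.1% ± 0.32 for HMOX1. The median over 13786 genes with at least 20 fragments in both libraries was 91.7%, so that KEAP1 lay at the 82.4th percentile and HMOX1 at the 28.5th, with the other 6 between. With nested genes taken off, TXNRD1 had 94.2% and 92.8%, above that median, and NFE2L2 88.9% and 88.9%. In AN without s4U the same members had 3.45% to 8.79% of their fragments marked, highest for TXNRD1 (8.79%) and HMOX1 (8.61%). The marked share passed the test for 9 of the 10 members, against 92.4% of all genes. OSGIN1 passed on 3 and 5 fragments and was lost without the second s4U+AN library (adjusted p = 0.0599).

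NQO1 stood apart. Its marked share was 36.0% of 25 fragments (95% Wilson interval 20.2% to 55.5%) and 11.1% of 9 fragments (1.99% to 43.5%) in the s4U+AN libraries, against 16.7% of 12 fragments in AN, and it did not pass the test (0.97 ± 1.39, adjusted p = 0.501). The interval of NQO1 ended at 55.5% in the library with more fragments, whereas the lowest bound among the 8 members with more fragments was 76.2%, for HMOX1. Marked shares of liver cell markers were also low in these libraries. The 15 genes together were marked in 15.3% of 334 and 10.1% of 582 fragments, ALB in 9.63% and 11.1%, and 1 of the 11 tested passed. The liver list was lower after s4U with acrylonitrile for 6 of 11 and higher for 0. NQO1 rested on few fragments, and the part of RNA from other cells in its share was not tested.

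**Figure D3:**
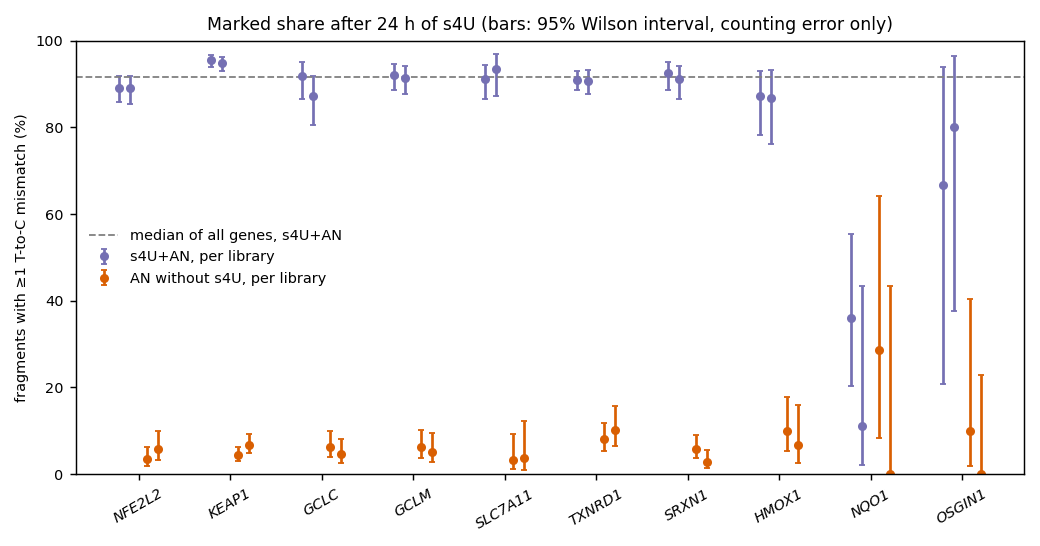
Marked share of each member (y axis, percent of its fragments with a T-to-C mismatch) in the 2 libraries of s4U+AN (purple) and of AN without s4U (orange); bars are 95% Wilson intervals and a dashed line is drawn at 91.7%, the median over genes in s4U+AN. The purple points of 8 members lie between 86.9% and 95.6%, and only NQO1 and OSGIN1, with 3 to 25 fragments per library, have purple intervals that overlap orange ones.

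The half-life of each messenger was computed from the labeled share after 1 h at 0 µM PDP with the formula of the study, which assumes a constant level. NFE2L2 had the shortest value of the members. It was labeled in 107 of 256 and 126 of 324 fragments, which gave 1.28 h and 1.41 h, or 1.34 h ± 0.090 (SD, n = 2), at the 9.81th percentile of 12811 protein-coding genes, whose median was 3.17 h. With the nested gene's fragments taken off, NFE2L2 had 1.33 h and 1.32 h. TXNRD1 had 3.01 h ± 0.0011, SRXN1 3.25 h ± 0.38, KEAP1 3.37 h ± 0.35, GCLC 3.58 h ± 0.46 and GCLM 4.30 h ± 0.032. In that order each of TXNRD1, SRXN1, KEAP1 and GCLC overlapped the next, while both values of GCLM lay above those of GCLC. HMOX1 had 5.67 h ± 0.49, at the 84.9th percentile. SLC7A11 (4.58 h), NQO1 (5.36 h) and OSGIN1 (5.88 h in 1 library) rested on 0 to 4 labeled fragments per library, so that their values have little precision.

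The background of marked fragments weighed most on the longest value. With each gene's own share in AN removed from its labeled share, NFE2L2 had 1.47 h, SRXN1 4.15 h, KEAP1 4.64 h, TXNRD1 5.02 h, GCLC 5.10 h and GCLM 6.80 h. HMOX1 had 27.7 h and 17.3 h, since 10.9% and 12.2% of its fragments were labeled where 8.61% were marked in AN. NFE2L2 stayed the shortest and HMOX1 the longest of the 7 members with at least 20 labeled fragments in both libraries. With its nested genes taken off but no background removed, TXNRD1 had 3.59 h and 4.01 h, against 3.01 h in each library with them counted.

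**Figure D4:**
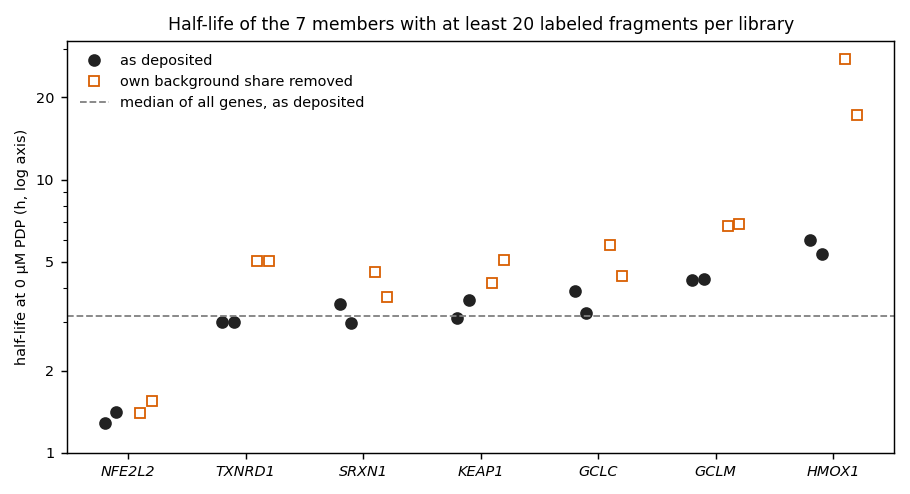
Half-life at 0 µM PDP in hours (log axis) for the 7 members with at least 20 labeled fragments in both libraries; filled circles are the values of the 2 libraries by the study's formula, open squares those with the gene's own marked share in AN removed, with a dashed line at 3.17 h, the median over genes. NFE2L2 is lowest at 1.28 h and 1.41 h and HMOX1 is highest on both scales, where its open squares have little precision.

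Treatment with PDP was compared with 0 µM at each dose, and the comparisons share the 0 µM libraries. In total fragments, scaled as in the deposited FPM values to all fragments of the library, 5 of 10 members were higher at 4 µM (NFE2L2, TXNRD1, NQO1, OSGIN1 and SLC7A11) and 1 was lower (GCLM), against 51.4% and 6.98% of 15473 genes (58.3% together). At 8 µM 3 were higher (NFE2L2, TXNRD1 and SLC7A11) and 1 was lower (GCLM), against 51.8% and 8.71% (60.5% together). With this scaling the median of all genes was itself 0.32 at 4 µM and 0.33 at 8 µM, and with TMM scaling it was 0.01 and 0.02, 1 member was higher (TXNRD1) and 5 were lower at either dose (KEAP1, GCLC, GCLM, SRXN1 and HMOX1). Levels are therefore given below together with the change relative to the median of all genes. The changes in total fragments also ran against GC content, with a Spearman's rho of -0.55 at 4 µM and -0.58 at 8 µM over 15042 genes.

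TXNRD1 and GCLM kept their direction under each scaling and with a GC offset. TXNRD1 stood at 40.8 and 40.5 FPM at 0 µM, 71.5 and 64.5 at 4 µM and 71.1 and 68.0 at 8 µM, with no overlap of either dose with 0 µM. Its unlabeled fragments alone went from 32.3 to 58.1 and 59.8 FPM (means of 2). With its nested genes taken off, total TXNRD1 stood at 36.1 and 35.2 FPM, then 66.6 and 60.1, then 66.2 and 63.7. TXNRD1 rose by 0.74 ± 0.079 (adjusted p = 8.10e-10) and 0.77 ± 0.079 (adjusted p = 3.37e-10), which is 0.42 and 0.45 above the median of all genes, and with TMM by 0.43 and 0.47 (adjusted p = 1.14e-05 and 2.65e-06). GCLM stood at 47.2 and 47.9 FPM at 0 µM, 35.2 and 38.6 at 4 µM and 37.2 and 42.2 at 8 µM. GCLM fell by 0.36 ± 0.087 at 4 µM (adjusted p = 5.21e-04) and by 0.26 ± 0.087 at 8 µM (adjusted p = 0.00937), and its change was -0.68 and -0.59 relative to the median of all genes. At 8 µM the call was lost without the second 0 µM library (adjusted p = 0.0750) or without the first 8 µM library (adjusted p = 0.120). NFE2L2 stood at 26.2 and 30.7 FPM at 0 µM, 34.7 and 34.6 at 4 µM and 37.1 and 38.5 at 8 µM, and rose by 0.28 ± 0.094 (adjusted p = 0.0107) and 0.41 ± 0.094 (adjusted p = 3.45e-04), which is -0.04 and 0.08 relative to the median. With TMM, NFE2L2 changed by -0.03 and 0.10 and was not called (adjusted p = 0.825 and 0.347), nor with a GC offset (0.08 and 0.19, adjusted p = 0.409 and 0.0684), and at 4 µM it was lost without the first 0 µM library (0.252) and with the nested gene taken off (0.0781).

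The remaining members were either level in FPM or rested on few fragments. KEAP1 stood at 152 and 147 FPM at 0 µM, 155 and 150 at 4 µM and 152 and 152 at 8 µM, and its groups overlapped. GCLC (38.4 to 40.7 FPM), SRXN1 (44.9 to 48.9) and HMOX1 (32.2 to 38.1) overlapped between all doses, and with KEAP1 their changes were between -0.03 and 0.06. Relative to the median of all genes these members lay between -0.36 and -0.27, and with TMM all 4 were called lower at both doses. With a GC offset the direction of KEAP1 was the opposite, higher by 0.28 (adjusted p = 5.29e-05) and 0.31 (adjusted p = 1.37e-05), and HMOX1 was higher at 8 µM (0.26, adjusted p = 0.0113), so that KEAP1 and HMOX1 have no direction that holds under each setting. SLC7A11 held 25 and 16 fragments at 0 µM, 84 and 78 at 4 µM and 71 and 74 at 8 µM, and was higher by 0.85 ± 0.26 (adjusted p = 0.00501) and 0.82 ± 0.26 (adjusted p = 0.00703), calls that were lost with TMM (adjusted p = 0.0803 and 0.0960), with DESeq2 (0.258 and 0.283), with a GC offset (0.54 and 0.47, adjusted p = 0.0672 and 0.114) and without the second 0 µM library (0.188 and 0.215), and at 8 µM without the second 8 µM library (0.0592). NQO1, with 9 and 15 fragments at 0 µM and 48 and 45 at 4 µM, was higher by 0.82 ± 0.33 at 4 µM (adjusted p = 0.0308), and was lost without the first 0 µM library (0.267) or either 4 µM library (0.102 and 0.0539), with TMM (0.195), DESeq2 (0.424) and a GC offset (0.0824), with fragments in genes as library size (0.0649) and without a filter (0.0502). OSGIN1, with 4 and 9 against 37 and 29 fragments, was higher by 1.21 ± 0.45 at 4 µM (adjusted p = 0.0219), was lost without the first 0 µM library (0.228) and with TMM (0.0985), and at 8 µM it passed without the second 8 µM library (0.0355) and with a GC offset (1.13, adjusted p = 0.0407), but not otherwise except with the block and the offset together. None of the 10 passed between 8 and 4 µM, against 0.336% of all genes, in edgeR with 0 at an unadjusted p under 0.05, nor in DESeq2, which gave an adjusted p for 7 of them.

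**Figure D5:**
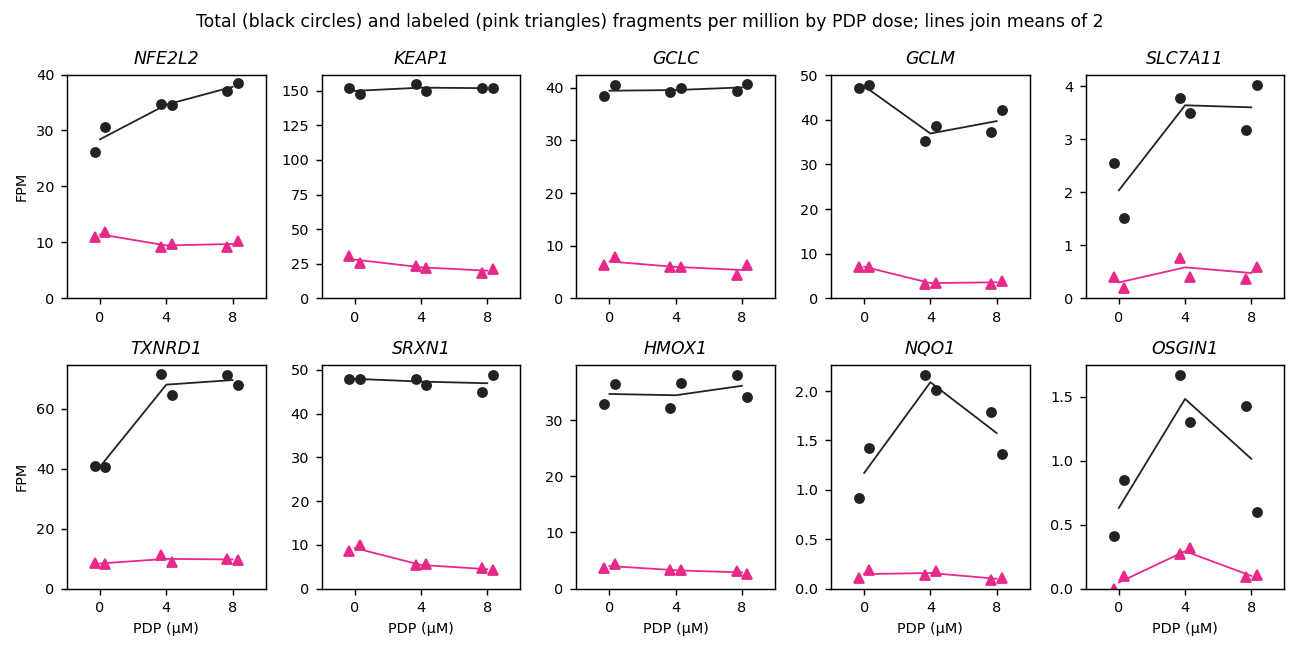
Total (black circles) and labeled (pink triangles) FPM (y axis, from 0, its own range per gene) for each member by PDP dose (x axis, µM); points are libraries and lines join the means of 2. Total TXNRD1 rose from 40.5 and 40.8 to between 64.5 and 71.5 FPM, and labeled GCLM and SRXN1 fell while total SRXN1 stayed between 44.9 and 48.9 FPM.

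Labeled fragments come in part from RNA made in the 1 h of s4U that began 20 min after PDP, and in part from background mismatches. In AN without s4U 5.76% of GCLM, 4.51% of SRXN1 and 5.44% of KEAP1 fragments were marked. The labeled values with PDP are not corrected for this. As scaled in FPM, the calls among members were drops rather than rises. Of the 7 members with at least 0.5 labeled FPM, 3 were lower (KEAP1, GCLM and SRXN1) and 0 higher at each dose, against 19.8% of 14236 genes lower and 9.24% higher at 4 µM (29.0% together) and 27.3% and 10.4% at 8 µM (37.8% together). NQO1, OSGIN1 and SLC7A11 held 0 to 17 labeled fragments per library and lay below the filter on low values. Without the filter all 10 were tested, still with 3 lower and 0 higher at each dose, and the lowest adjusted p of these members was 0.254, for OSGIN1 at 4 µM (2.41). The median of all genes was -0.03 and -0.11. Labeled GCLM stood at 7.06 and 7.10 FPM at 0 µM, 3.29 and 3.54 at 4 µM and 3.22 and 3.97 at 8 µM, with no overlap with 0 µM at either dose. It fell by 1.05 ± 0.19 (adjusted p = 1.56e-06) and 0.99 ± 0.19 (adjusted p = 4.93e-06). Labeled SRXN1 stood at 8.60 and 9.94 FPM, then 5.27 and 5.51, then 4.65 and 4.19, and fell by 0.78 ± 0.16 (adjusted p = 3.23e-05) and 1.06 ± 0.17 (adjusted p = 2.06e-08). Both drops were called under every alternative that tested them. Labeled KEAP1 stood at 30.3 and 25.7 FPM at 0 µM, 23.1 and 21.8 at 4 µM and 18.4 and 21.6 at 8 µM, and fell by 0.32 ± 0.096 (adjusted p = 0.00593) and 0.49 ± 0.099 (adjusted p = 8.74e-06). With a GC offset these were -0.07 and -0.17 (adjusted p = 0.700 and 0.224), and at 4 µM the call was lost without the first 0 µM (0.302) or second 4 µM library (0.0537) and with DESeq2 (0.131). Over all genes the changes ran against GC content, with a Spearman's rho of -0.48 and -0.52 over 13892 genes.

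The other 4 members above the filter did not pass in labeled fragments as scaled in FPM. Labeled NFE2L2 stood at 11.0 and 11.9 FPM at 0 µM, 9.15 and 9.76 at 4 µM and 9.26 and 10.2 at 8 µM, with changes of -0.28 ± 0.14 (adjusted p = 0.122) and -0.24 ± 0.14 (adjusted p = 0.166), and both doses lay below 0 µM. With a GC offset NFE2L2 was called lower at both doses (adjusted p = 0.00767 and 0.00340), and with the nested gene taken off at 4 µM (-0.37, adjusted p = 0.0434) but not at 8 µM (-0.31, adjusted p = 0.0892). With fragments in genes as library size it was called lower at 4 µM (0.0225). Labeled TXNRD1 stood at 8.39 and 8.33 FPM, then 11.0 and 8.73, then 9.93 and 9.47, with changes of 0.24 ± 0.15 (adjusted p = 0.222) and 0.22 ± 0.15 (adjusted p = 0.259), and both doses lay above 0 µM. With the nested genes taken off, labeled TXNRD1 was called higher at both doses, by 0.49 (adjusted p = 0.0164) and 0.47 (adjusted p = 0.0164), and with TMM at 8 µM (0.37, adjusted p = 0.0373). Labeled GCLC changed by -0.23 ± 0.17 and -0.40 ± 0.18 (adjusted p = 0.326 and 0.0648) and passed at 8 µM without the first 0 µM (0.0475) or second 8 µM library (0.0103), with a GC offset (-0.62, adjusted p = 0.00295), among genes of at least 5 FPM (0.0408) and with fragments in genes as library size (0.0218). Labeled HMOX1 changed by -0.31 ± 0.22 and -0.48 ± 0.23 (adjusted p = 0.314 and 0.0890) and passed at 8 µM with fragments in genes as library size (0.0420). None of the 7 passed between 8 and 4 µM, against 5.70% of all genes (4.96% lower and 0.738% higher), with 0 at an unadjusted p under 0.05 in edgeR. DESeq2 gave an adjusted p for 1 of them and called 0.

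The labeled share of a member, which takes out the scaling of the library, fell for 5 of the 10 members at 4 µM and for 7 at 8 µM, against 41.7% and 49.0% of all genes lower and 0.304% and 0.653% higher (42.0% and 49.6% together). The share of NFE2L2 went from 41.8% and 38.9% at 0 µM to 26.4% and 28.2% at 4 µM and 24.97% and 26.4% at 8 µM. Its change on the log2 scale of the odds was -0.84 ± 0.16 (adjusted p = 5.77e-06) and -0.96 ± 0.16 (adjusted p = 1.37e-07), where the median of all genes was -0.47 and -0.57. The share of SRXN1 went from 17.9% and 20.8% to 11.0% and 11.8% and then 10.3% and 8.57%, a change of -0.90 ± 0.17 and -1.19 ± 0.17 (adjusted p = 1.80e-06 and 9.43e-10). GCLM went from 14.97% and 14.8% to 9.34% and 9.16% and then 8.66% and 9.41% (-0.78 ± 0.19 and -0.82 ± 0.19, adjusted p = 3.14e-04 and 1.23e-04). KEAP1 (-0.41 ± 0.099 and -0.61 ± 0.10) and TXNRD1 (-0.61 ± 0.16 and -0.67 ± 0.16) were lower at both doses, and GCLC (-0.50 ± 0.18) and HMOX1 (-0.60 ± 0.23) at 8 µM. These shares are not corrected for background. For HMOX1 at 8 µM they were 8.21% and 7.64%, below the 8.61% marked in AN without s4U. Total TXNRD1 and NFE2L2 were thus higher at both doses in FPM while their labeled shares were lower, their unlabeled fragments having gone from 32.3 to 58.1 and 59.8 FPM and from 17.0 to 25.2 and 28.1 FPM (means of 2). The TXNRD1 call at 4 µM was lost with the nested genes taken off (-0.40, adjusted p = 0.0533) and the KEAP1 call at 4 µM without the first 0 µM library (0.0714). At 8 µM GCLC was lost without the second 0 µM (0.282) or first 8 µM library (0.375) and HMOX1 without the second 0 µM (0.215) or second 8 µM library (0.0630).

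Of all genes, 51.4% and 51.8% were higher and 6.98% and 8.71% lower in total fragments at 4 and 8 µM PDP. In labeled fragments 9.24% and 10.4% were higher and 19.8% and 27.3% lower, and the list counts that follow stand beside these shares. Among other genes of the pathway, total fragments were higher for 5 of 11 regulators at each dose, led by BACH1, the repressor that competes with NRF2 at AREs (0.98 ± 0.12 and 0.95 ± 0.12), and lower for 0. Their labeled fragments were lower for 3 of 11 at 4 µM and 4 at 8 µM, with MAFK at -0.85 ± 0.081 and -1.09 ± 0.083 and MAFG at -0.68 ± 0.10 and -1.01 ± 0.11. Of 37 other NRF2 targets tested, 23 and 21 were higher in total fragments and 1 and 1 lower, led by PRDX1 (0.82 ± 0.080 and 0.69 ± 0.081). Their median change was 0.33 and 0.33, as for all genes. In labeled fragments 2 and 3 of 34 were higher and 6 and 9 lower, led by SESN2 (-0.69 ± 0.090 and -0.81 ± 0.092). Of 11 ATF4 targets, 5 were higher and 1 lower in total fragments at each dose, and in labeled fragments 1 was higher and 4 and 6 lower. ATF3 was the ATF4 target that was higher in labeled fragments (0.72 ± 0.17 and 1.73 ± 0.16). Markers of the HEK293 line were higher for 3 and 5 of 8 in total fragments and lower for 1 and 6 of 8 in labeled fragments.

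Windows of 4000 bases downstream of the annotated end held 0 to 4 fragments for each member and library, so that none of the 10 passed the filter on low values, above which 35.8% of 2173 genes were called at 8 µM. Without that filter 6 members were tested there and 0 were called (adjusted p = 0.877 to 1). The levels most like those of NFE2L2 over the 14 libraries, each experiment centred on its own mean and over 10183 genes, were those of SLC25A3 (Pearson's r 0.96), DPY19L3, FAR2, KIAA0100 and ME1. Those most like HMOX1 were MUTYH (0.99), MAPKAPK3, LAMB2, ITFG3 and TMEM8B (0.98). Among the members themselves HMOX1 went most closely with SRXN1 (0.91) and OSGIN1 (0.81), and NFE2L2 went with SLC7A11 (0.72) and TXNRD1 (0.69) and against GCLM (-0.73). These correlations share libraries, depth and the GC trend of acrylonitrile and are a description only. They were computed with the nested genes of NFE2L2 and TXNRD1 counted, and were not repeated with them taken off.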

How the data were processed

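Polyadenylated RNA of 14 HEK293T libraries was analysed, 8 of the conversion and 6 of the PDP experiment. Per the labels and the methods, the authors trimmed reads with cutadapt 1.18, kept 1 read of each identical set, removed ribosomal RNA, mapped to GRCh37 with HISAT2 2.1.0 and kept unique proper pairs. The deposited tables hold raw fragment counts per gene, by number of T-to-C mismatches or as total and labeled counts, and fragments-per-million values (RPM, called FPM) relative to all library fragments, also for windows around the gene. The deposited half-lives in minutes were recomputed from the counts with 60 min of labeling. Mismatches at known and called SNPs had been removed by the authors.

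Groups came from the labels. Counts were tested with edgeR 4.0.16 (quasi-likelihood, Benjamini-Hochberg over all genes, threshold 0.05), with TMM scaling and edgeR's filter in the conversion experiment, and with the authors' library sizes and a mean of at least 1 FPM (0.5 for labeled) in the PDP experiment. Shares were tested as marked against unmarked counts within libraries. Alternatives were DESeq2 1.42.0, limma 3.58.1, other scalings and filters, a GC offset, a replicate block and leaving out each library. Library sizes in fragments in genes, and taking off nested genes, were added after the data were seen. All 10 members were named in every comparison, and of each other list up to 4 genes of smallest p past the threshold, of which the text gives a selection. The members and lists were chosen with earlier results of these data known. Python 3.11.15 and R 4.3.3 were used. The tests were tried on simulated data, in which 7% of 100 planted 1.5-fold and 58% of 100 planted 2-fold changes were called in the s4U comparison without acrylonitrile over 18914 genes, 32% and 74% in labeled fragments at 8 µM PDP over 14236 genes, and 73% and 85% in total fragments at 8 µM over 15473 genes. Each simulation changed only 200 genes, whereas 37.8% to 70.5% of genes were called in these comparisons of the data. The adjustment differs with that number, so these rates do not give the power of the tests reported.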

Additional observations from a re-analysis of the deposited data

How the results depend on the processing

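Of the counts of called members, most stayed within 1.5 times under each alternative, and the cause of the exceptions was not tested unless given. After s4U without acrylonitrile, 0 members were higher with library totals and 1 with a GC offset, and 0 to 3 with 1 library left out. With acrylonitrile, 1 was higher with library totals, 2 were lower with DESeq2, with a GC offset and with the replicate block and GC offset together, and with 1 library left out 1 to 3 were higher and 2 to 4 lower. For acrylonitrile without s4U, 6 were higher with DESeq2's size factors and 3 to 6 with 1 library left out. In labeled RNA 3 were higher with a GC offset, with or without the block. For the difference of the s4U changes, 1 was higher and 1 lower without a filter, and 0 to 2 were higher and 0 to 2 lower with 1 library left out. For total fragments at 4 µM PDP, 1 was higher and 5 lower with TMM and with DESeq2, 2 were higher among genes of at least 5 FPM (fewer members tested), 3 with a GC offset, with or without the block, and 3 with fragments in genes as library size, and 2 to 5 with 1 library left out. At 8 µM, 1 was higher and 5 lower with TMM, 1 higher and 4 lower with DESeq2, and 0 to 1 lower with 1 library left out. For labeled fragments, 1 was higher at both doses with nested genes taken off and at 8 µM with TMM, and 5 were lower at 8 µM with fragments in genes as library size. The members' median marked share was 79.4% with at least 2 mismatches and 90.7% with the background removed, and their median half-life 5.02 h with it removed.

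Signs that turned were NFE2L2 after s4U with nested genes taken off (0.51), KEAP1 after s4U with acrylonitrile with a GC offset (0.30, also with the block), and in labeled RNA with acrylonitrile NFE2L2 (0.68) and KEAP1 (-0.18) with a GC offset, with or without the block. At 4 µM PDP, TMM and DESeq2 gave -0.027 and -0.034 for NFE2L2, -0.29 and -0.29 for KEAP1 and -0.30 and -0.31 for GCLC, and at 8 µM -0.28 and -0.30 for KEAP1 and -0.28 and -0.30 for GCLC, with -0.24 for HMOX1 under TMM. The differences between replicates 1 and 2 correlated between groups at -0.04 to 0.22 in the conversion and -0.02 to 0.02 in the PDP experiment. The highest values were 0.22 for AN with s4U+AN and 0.19 for s4U with s4U+AN, so that pairing by replicate number was weak or absent. With the replicate block the counts stayed at 2 higher and 5 lower after s4U, 2 and 4 with acrylonitrile, and 5 and 1 and 3 and 1 in total fragments. A sample left alone in its group was assumed to vary like the others. NQO1, OSGIN1 and labeled SLC7A11 were limited by their few fragments.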
